A study of Caenorhabditis elegans with 2 samples.

Results

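Among the CEH-20 peaks of whole Caenorhabditis elegans larvae, 506 of 2522 (20.1%) lay on an autosome at a promoter from which protein-coding genes are read in 1 direction only. A peak was taken when its summit was at most 500 bp from the transcript start of a protein-coding gene, when all such starts within 1000 bp of the summit were on one strand, and when no tRNA gene lay within 200 bp. The peaks came from the authors' conservative list, whose peaks passed a limit on the irreproducible discovery rate, IDR, which is low where a peak ranks alike in repeated inputs. Of 1892 autosomal peaks in that list, 780 had a summit within 500 bp of a start. Of these 780, 39 were near a tRNA gene, 235 had starts on both strands and 506 remained. They are called single-strand promoter peaks here, and no measured strength entered their choice beyond membership of the list.

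Chromatin came from strain RW12211, in which CRISPR insertion had put the TY1, EGFP and 3xFLAG tags on the ceh-20 gene on chromosome III (allele st12211). The animals were L4 larvae at 49 h that had been synchronised by bleaching and starvation as L1 larvae. Sonicated chromatin was pulled down with an anti-GFP antibody and its DNA sequenced, an assay known as ChIP-seq. Both samples belong to 1 group and are biological replicates (n = 2), whole organisms were used, and all cells of the animal contribute to each peak. Control libraries and read counts were not analysed here, so depth per sample is unknown.

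CEH-20 belongs to the PBX family of homeodomain proteins. It binds DNA beside Hox proteins such as LIN-39 and beside Meis-type proteins such as UNC-62, and is known in the worm for its part in mesoderm, neuroblast and vulval development. Most worm messenger RNAs receive a spliced leader at their 5′ end, so an annotated transcript start can be the splice acceptor and lie downstream of where transcription begins. A promoter with starts on one strand has a direction, so each summit can be placed upstream or downstream of its gene and each sequence element can be read along or against the gene.

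The windows below hold 101 bp centred on a summit, read 5′ to 3′ along the gene, from the RefSeq sequence of WBcel235 (the same assembly as ce11). They belong to the strongest single-strand promoter peaks that hold each element, among those considered for printing, whose windows lie outside annotated untranslated regions. Capitals mark the element on either strand. The first group shows the element AGACGCAG, the leading 8-mer of all conservative peaks, in front of sec-61.G (a subunit of the Sec61 protein channel of the endoplasmic reticulum, chrV:10897320-10897420, minus strand), ntl-11 (a subunit of the CCR4-NOT complex, chrIV:15471553-15471653, minus strand) and C34C12.8 (chrIII:3460207-3460307, plus strand).
sec-61.G: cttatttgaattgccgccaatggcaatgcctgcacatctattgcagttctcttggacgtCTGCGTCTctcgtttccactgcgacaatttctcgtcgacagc
ntl-11: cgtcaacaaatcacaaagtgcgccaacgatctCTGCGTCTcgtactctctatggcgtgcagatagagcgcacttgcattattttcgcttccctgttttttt
C34C12.8: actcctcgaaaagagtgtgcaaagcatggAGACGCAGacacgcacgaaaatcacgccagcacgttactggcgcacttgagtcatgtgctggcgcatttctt

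The 6-mer CGTCTC, whose reverse complement GAGACG overlaps that 8-mer where a G precedes it, is shown at rps-24 and Y39E4B.6. These are a protein of the small ribosomal subunit (chrIV:385525-385625, plus strand) and chrIII:13070642-13070742 (plus strand). Neither window holds the whole 8-mer, but in both the 6-mer lies at the window's end, so whether the 8-mer continues past it is not shown. The GA repeat GAGAGA is shown at cnk-1 (a scaffold protein of Ras signalling, chrIII:10270901-10271001, plus strand), ztf-7 (a zinc finger protein, chrV:9789964-9790064, minus strand) and hsp-1 (the constitutive Hsp70 chaperone, chrIV:17278517-17278617, plus strand).
rps-24: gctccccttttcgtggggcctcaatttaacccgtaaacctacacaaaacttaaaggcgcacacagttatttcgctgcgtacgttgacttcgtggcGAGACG
Y39E4B.6: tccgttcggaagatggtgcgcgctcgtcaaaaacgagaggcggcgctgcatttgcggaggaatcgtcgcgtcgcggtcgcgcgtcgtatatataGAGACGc
cnk-1: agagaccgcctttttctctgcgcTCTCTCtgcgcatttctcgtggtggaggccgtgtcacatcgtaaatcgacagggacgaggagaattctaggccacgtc
ztf-7: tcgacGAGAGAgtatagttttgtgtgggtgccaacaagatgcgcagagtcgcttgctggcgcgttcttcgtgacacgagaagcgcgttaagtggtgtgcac
hsp-1: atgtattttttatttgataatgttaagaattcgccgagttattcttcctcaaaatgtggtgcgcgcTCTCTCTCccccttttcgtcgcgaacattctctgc

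The composite TGATNNAT, to which PBX and Hox proteins bind together, is shown at F54C9.3 (chrII:8566983-8567083, minus strand), lap-2 (a leucine aminopeptidase, chrV:13043304-13043404, plus strand) and spp-8 (a saposin-like protein, chrIV:8481452-8481552, plus strand). F54C9.3 and spp-8 hold overlapping copies, as hsp-1 does of the GA repeat. The E-box CACGTG is shown at tos-1 (a gene used as a reporter of splicing, chrV:9344248-9344348, minus strand) and the GC box CCGCCC at vig-1 (an RNA-binding protein of the Vig family, chrII:1320575-1320675, plus strand).
F54C9.3: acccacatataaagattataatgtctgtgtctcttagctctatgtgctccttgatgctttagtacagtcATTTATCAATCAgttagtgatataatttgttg
lap-2: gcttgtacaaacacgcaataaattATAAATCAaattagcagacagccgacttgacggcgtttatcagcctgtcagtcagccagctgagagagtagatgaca
spp-8: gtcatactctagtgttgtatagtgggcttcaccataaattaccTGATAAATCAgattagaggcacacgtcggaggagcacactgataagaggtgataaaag
tos-1: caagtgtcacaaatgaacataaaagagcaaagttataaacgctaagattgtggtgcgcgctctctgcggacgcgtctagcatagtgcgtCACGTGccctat
vig-1: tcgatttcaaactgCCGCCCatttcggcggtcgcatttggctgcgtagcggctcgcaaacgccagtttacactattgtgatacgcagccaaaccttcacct

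The strongest single-strand promoter peaks were those nearest to rpl-3, K08F11.1, mog-4 and cdc-48.1. The deposited signal is the authors' value for the strength of a peak. Its scale is not stated, and signals are compared only within 1 list. In the list made from both libraries the signal of the 506 peaks had a median of 84.3, quartiles of 67.4 and 117, and a range from 2.08 to 735. The same median was 98.4 for the 235 promoter peaks with starts on both strands, 82.7 for 173 promoter peaks with one strand on X, and 83.2 for all conservative peaks. Of the 100 strongest conservative peaks, 22 were single-strand promoter peaks, near their 20.1% share of the whole conservative list.

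The strongest peak of the whole conservative list was one of them, at rpl-3 (WBGene00004414, a protein of the large ribosomal subunit). It spanned chrIII:3867445-3867701 with a summit 274 bp upstream of the start. Its signal was 735 in the joint list, 377 in the list of replicate 1 and 362 in that of replicate 2, where it ranked 1, 2 and 3. The rpl-3 peak thus stood near the top in each replicate.

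A peak at K08F11.1 (WBGene00019541, chrIV:4725475-4725729) followed with a joint signal of 658, 332 in replicate 1 and 324 in replicate 2. Its summit lay 458 bp downstream of the start, one of 2 among the 25 strongest that were not upstream. The peak of mog-4 (WBGene00003392, a DEAH-box RNA helicase of splicing and germline sex determination, chrII:14561732-14561995) had a joint signal of 586, with 299.9 in replicate 1 and 287 in replicate 2, 272 bp upstream. That of cdc-48.1 (WBGene00007352, the p97 ATPase that extracts ubiquitinated proteins, chrII:10563463-10563675) reached 509, with 258 and 249 in replicates 1 and 2, at 178 bp upstream. All 3 ranked among the 10 strongest ranked peaks of each replicate.

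The next strongest peaks, from 440 to 341, were at tos-1, rpl-35 (large ribosomal subunit), his-37 (a histone H4 gene), mtcu-2 (a mitochondrial tRNA-modifying enzyme), eel-1 (a HUWE1-type ubiquitin ligase), cox-5A (a subunit of cytochrome c oxidase), sec-61.G and ints-4 (a subunit of the Integrator complex). The replicates did not order them alike: rpl-35 had 241 in replicate 1 and 179 in replicate 2, whereas eel-1 had 198 in replicate 1 and 205 in replicate 2. Histone H4 genes have near-identical copies, and how reads with several matches were treated is not stated, so the his-37 value is uncertain. The remaining peaks of the 25 strongest, from 321 to 231, were at cnk-1, Y43F8B.2, ntl-11, rps-24, vig-1, Y39E4B.6, pqn-51, cox-5B (cytochrome c oxidase), Y39B6A.43, F54C9.3, ztf-7, eelo-2 and hsp-1. Of the 25 strongest peaks, 23 had a summit upstream of the start, 21 had an intergenic summit and 25 were found in the thresholded lists of both replicates.

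Single-strand promoter peaks sat upstream of the gene, most often 101 to 300 bp before the start. The summit was upstream in 408 of 506 (80.6%; exact 95% interval 76.9 to 84.0). The comparison set was the 9761 peaks of the authors' ranked list, which has no threshold, that met the same location rule but were not in the conservative list. The median signal of these weaker peaks was 22.3. The 506 single-strand promoter peaks made up 4.93% of all 10267 ranked peaks that met the rule. Among the 9761, 4499 (46.1%; 45.1 to 47.1) were upstream, so the odds were 4.87 times as high in the conservative peaks (two-sided Fisher's exact test, p = 1.25e-54). Peaks near each other are not independent, and these p-values describe peaks of the lists, not a difference between conditions. An upstream summit was as common in the promoter peaks most like these. It was found in 86.4% of autosomal promoter peaks with starts on both strands and in 84.4% of X promoter peaks with one strand.

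The median summit lay upstream of the start, at a signed distance of −178.5 bp with quartiles of −301.75 and −34.25, while ranked peaks outside the list had a median of 29 bp downstream. In bins of distance, 129 summits lay 500 to 301 bp upstream, 204 (40.3%) lay 300 to 101 bp upstream and 75 lay 100 to 1 bp upstream. Downstream there were 40 summits up to 100 bp, 31 from 101 to 300 bp and 27 from 301 to 500 bp. The median signal was 89.2 in the bin from 300 to 101 bp upstream and 65.6 in the bin from 101 to 300 bp downstream. Split by signal into 4 sets of 126 or 127, the peaks were upstream in 70.1% of the weakest set, then in 81.0%, 83.3% and, in the strongest set, 88.2%. Outside the list it was 42.4% in the weakest of 4 such sets and 52.9% in the strongest, where signals ran from 30.7 to 123. The part that strength has in the difference was not tested.

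**Figure D1:**
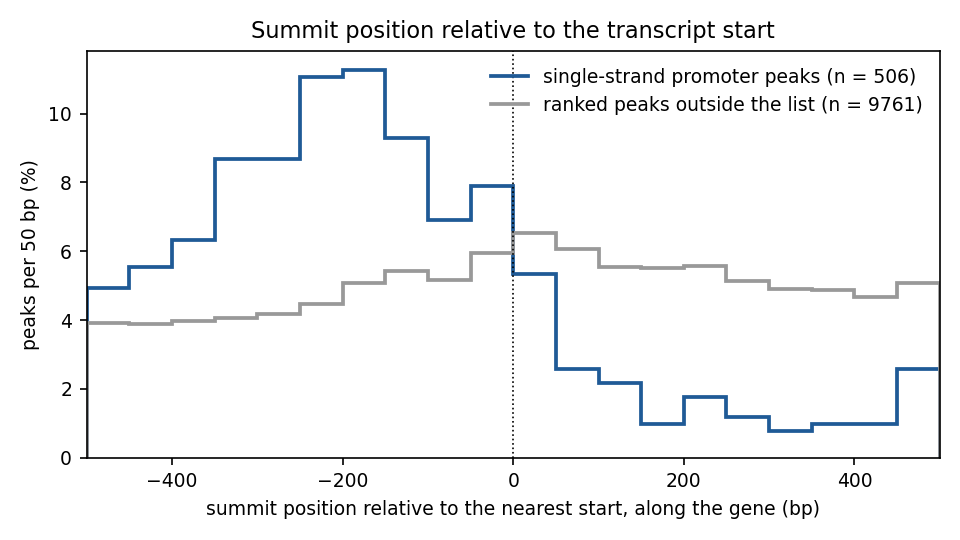
Position of the summit relative to the nearest protein-coding start, along the gene, in bins of 50 bp, as the share of peaks in each set: 506 single-strand promoter peaks of the conservative list (blue) and 9761 ranked peaks that met the same rule outside it (grey). The blue line is highest between 300 and 100 bp upstream and low downstream of the start, where the grey line is higher.

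By annotation, 326 summits (64.4%) were intergenic, 20.6% lay in an intron, 45 (8.89%) in a 5′ UTR, 25 (4.94%) in a coding exon and 6 (1.19%) in a 3′ UTR. Outside the list, 27.1% of summits were intergenic and 33.8% lay in coding exons. The few coding-exon summits came mostly from the weaker peaks: 10.2% of the weakest set by signal and 1.57% of the strongest lay there. The strongest of them was at Y18D10A.4, with a joint signal of 198, 94.7 in replicate 1 and 107 in replicate 2, 78 bp into the gene. A signal of this size in a coding exon was thus present in both replicates.

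The 506 peaks had 463 nearest genes, 7.39% of the 6265 genes with any ranked peak that met the rule. Of these genes, 38 had at least 2 of the peaks and 3 had at least 3. The gene kin-1, the catalytic subunit of protein kinase A, has several alternative starts and had 5 peaks with signals from 52.02 to 111. At Y43F8B.2 the 3 peaks had signals of 293, 102 and 5.15, and at M01H9.3 they had signals of 102, 84.5 and 11.0. In both genes the weakest peak overlapped a stronger one, and at kin-1 the peaks of 52.6 and 52.02 overlapped each other. In all, 54 single-strand promoter peaks overlapped another conservative peak, including each of the 24 with a signal under 20.

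The GA repeat, the GC box and the E-box were more frequent at these summits than in their flanks, and the 8-mer and 6-mer chosen from the conservative peaks were common there. Each element was searched on either strand in the 50 bp to each side of a summit, and in pieces that start 250 bp to each side and hold as many positions (flanks). The 8-mer AGACGCAG and the 6-mer CGTCTC had been chosen as the leading ones of all conservative peaks, these 506 included, so their shares against flanks and weaker peaks are a description with no test. The other elements were also chosen with earlier results of these data known, so their p-values are not independent of that choice. Adjustment over the 13 elements includes the 8-mer and the 6-mer. The 8-mer was in 52 peaks (10.3%; 7.77 to 13.3), in the flanks of 4 (0.791%) and in 179 (1.83%) of the ranked peaks outside the list. Of 13213 autosomal promoters with starts on one strand, 1.32% held it in a window of the same length centred 178 bp upstream.

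The 6-mer CGTCTC was in 94 peaks (18.6%), in 2.96% of flanks, in 4.99% of peaks outside the list and in 3.42% of promoters. The overlap of both elements is large: 47 peaks held both, and 46 of all 506 (9.09%) held the joined GAGACGCAG, against 144 (1.48%) outside the list. At least one of the pair was in 99 peaks (19.6%), 5.35% of those outside. The joined element was also in 7.23% of autosomal promoter peaks with starts on both strands and in 6.94% of X promoter peaks with one strand. At least one of the pair was in 14.9% and 16.8% of those 2 sets. The GA repeat GAGAGA was in 102 peaks (20.2%) against 6.52% in flanks (exact McNemar test with Benjamini-Hochberg adjustment over 13 elements, adjusted exact p = 2.51e-10), 7.65% outside (Fisher's exact test, adjusted exact p = 2.60e-17) and 7.70% of promoters. Of these 102 peaks, 48 also held the 8-mer or the 6-mer. Among upstream summits alone, a comparison added later, the GA repeat was in 20.1% against 10.3% outside (Fisher's exact test, adjusted exact p = 1.22e-07).

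The GC box CCGCCC, a site of Sp1-type factors, was in 32 peaks (6.32%) against 1.19% in flanks (adjusted exact p = 2.80e-05), 3.28% outside (adjusted exact p = 0.00204) and 2.27% of promoters. The E-box CACGTG, bound by basic helix-loop-helix proteins, was in 24 (4.74%) against 0.791% in flanks (adjusted exact p = 0.000163), 2.92% outside (adjusted exact p = 0.0450) and 1.60% of promoters. The E-box call against peaks outside was lost under 6 alternatives, and from the list of replicate 2 alone the adjusted p was 0.111 against flanks and 0.652 against peaks outside. The GC-box call against peaks outside was lost with summits within 250 bp of a start (adjusted exact p = 0.138). Beside the 80.6% of all 506 peaks with an upstream summit, the counts were 30 of 32 with a GC box, 22 of 24 with an E-box, 82 of 102 with the GA repeat and 35 of 51 with the PBX-Hox composite.

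Elements of core promoters and T-rich sequence were scarcer at these summits than around them. The TATA box TATAAA was in 5.34% of peaks against 12.1% in flanks (adjusted exact p = 0.000361) and 8.31% outside (adjusted exact p = 0.0286). The splice acceptor TTTCAG, also used to add the spliced leader, was in 7.91% against 19.4% in flanks (adjusted exact p = 2.91e-07) and 19.03% outside (adjusted exact p = 2.79e-11). The T run TTTTTT was in 23.9% against 41.9% in flanks (adjusted exact p = 3.84e-09) and 33.6% outside (adjusted exact p = 1.03e-05). Among all 13213 promoters, 46.9% held a T run and 13.1% a TATA box. With summits within 250 bp of a start, the TATA box no longer passed against flanks (adjusted exact p = 0.0534) or outside (adjusted exact p = 0.362).

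The sites that PBX proteins bind with their partners did not pass against flanks. The PBX-Hox composite TGATNNAT was in 51 peaks (10.1%; 7.60 to 13.0) and in the flanks of 49 (9.68%; adjusted exact p = 0.993). It was in 7.15% of peaks outside the list (adjusted exact p = 0.0286) and in 8.85% of promoters. That difference from peaks outside was past the threshold in the lists as deposited but not among upstream summits alone (8.58% against 7.49%, adjusted exact p = 0.610), nor under 5 other alternatives, with adjusted exact p from 0.0579 to 0.156. The scrambled control GTTANNTA was in 1.78% of peaks and 3.36% of flanks (adjusted exact p = 0.219).

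The Meis core TGACAG was in 19 peaks (3.75%) and in 1.58% of flanks (adjusted exact p = 0.0755). The PBX-Meis composite TGATTGAC was in 2 peaks and 1 flank, too few for a comparison. The GATA core GATAA was in 21.7% of peaks and 24.5% of flanks (adjusted exact p = 0.390). None of the GA repeat, the 6-mer, the 8-mer and the PBX-Hox composite was in 313 of the 506 peaks (61.9%). Only 7 peaks held the PBX-Hox composite with the 6-mer or the 8-mer, and 5 held it with the GA repeat.

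**Figure D2:**
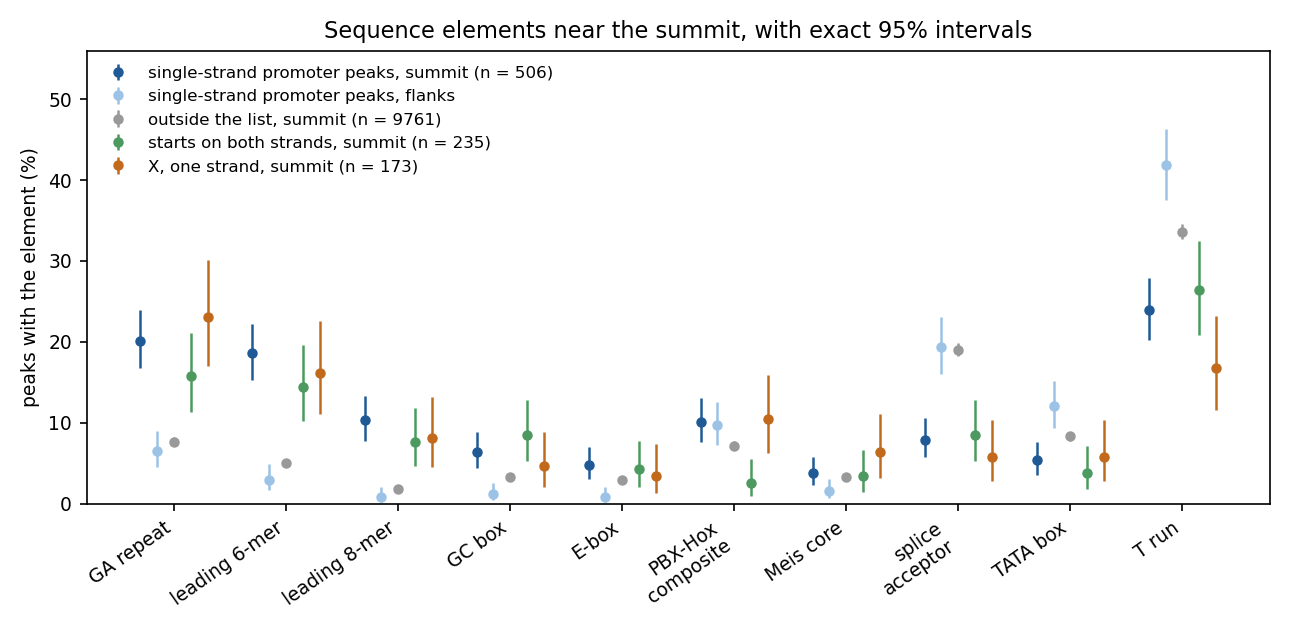
Share of peaks with each sequence element within 50 bp of the summit, with exact 95% intervals, in single-strand promoter peaks (dark blue), their flanks (light blue), ranked peaks outside the conservative list (grey), autosomal promoter peaks with starts on both strands (green) and X promoter peaks with one strand (orange). The GA repeat, the leading 6-mer and the leading 8-mer stand well above flanks and grey points, while the PBX-Hox composite is at 10.1% at summits and 9.68% in flanks and lowest, at 2.55%, where starts are on both strands.

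Against the promoter peaks most like them, single-strand promoter peaks held the PBX-Hox composite more often than autosomal promoter peaks with starts on both strands. The composite was in 51 of 506 (10.1%) and in 6 of 235 (2.55%; 0.943 to 5.47), with odds 4.28 times as high (Fisher's exact test, adjusted exact p = 0.00218). The GATA core was in 21.7% and 13.2% (adjusted exact p = 0.0420). The other 11 elements did not pass against that set, among them the GA repeat (20.2% and 15.7%, adjusted exact p = 0.573) and the 8-mer (10.3% and 7.66%, adjusted exact p = 0.612). The composite call was lost in the list of replicate 1 alone, where the shares were 10.4% and 5.19% (adjusted exact p = 0.378), and with summits within 250 bp of a start (10.3% and 3.19%, adjusted exact p = 0.0561). The GATA call was lost in each of those and under 5 more alternatives. The 10.1% with the composite was itself near its share in flanks (9.68%), in autosomal promoters with one strand (8.85%) and in X peaks with one strand (10.4%).

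No element passed against the 173 X promoter peaks with one strand, and 0 of the 13 had an unadjusted p under 0.05. The closest was the T run, in 23.9% of autosomal and 16.8% of X peaks (unadjusted exact p = 0.0560, adjusted exact p = 0.728). The PBX-Hox composite was in 18 of those 173 (10.4%; 6.28 to 15.9), and the intervals of both sets overlap. A p that misses the threshold does not show that the sets are alike.

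Some elements were more frequent in stronger peaks. The 8-mer was in 6.30% of the weakest set by signal (8 of 127) and in 14.96% of the strongest (19 of 127). The T run went from 32.3% in the weakest set to 15.7% in the strongest. The PBX-Hox composite was in 8.66%, 11.9%, 14.3% and 5.51% of the sets from weakest to strongest, with no steady order. The median signal was 89.8 with the 6-mer or 8-mer, 90.8 with the GA repeat and 83.7 with the PBX-Hox composite, beside 84.3 over all 506 peaks.

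Over all 2080 pairs of a 6-mer with its reverse complement, 284 (13.7%) were more frequent in single-strand promoter peaks than in ranked peaks outside the list and 190 (9.13%) were less frequent (Fisher's exact test, Benjamini-Hochberg adjusted p under 0.05). Overlapping 6-mers are counted separately. Among the most enriched by p were pieces of the 8-mer and of the GA repeat, GCGCGC and, among others, the 6-mer GCGCCA. A piece of the chosen 8-mer, ACGCAG, was in 16.4% of peaks and 3.87% outside. AGAGAC, which shares bases with GAGACG, was in 86 peaks and 5.13% of those outside. Both shares are a description with no test, since the 8-mer and the 6-mer were chosen from these peaks. GCGCGC was in 46 peaks (9.09%) and 1.54% outside, a ratio of 5.92 (adjusted exact p = 3.70e-17). Of the depleted 6-mers AAAATT had the smallest p, in 14.6% and 33.9% (adjusted exact p = 4.54e-19), and CCTGAA was in 1.19% and 6.32%.

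The summits were islands of higher GC content. Within 50 bp of the summit, G and C made up 46.8% of bases in single-strand promoter peaks and 40.2% in ranked peaks outside the list. In the same windows it was 47.7% in promoter peaks with starts on both strands and 47.2% on X. From 250 to 300 bp away it fell to 34.9% on the upstream side and 36.9% on the downstream side. Read along the gene, the window held 24.98% C, 21.8% G, 28.2% T and 25.1% A. Elements rich in G and C, or in T, share their direction with this composition, and its part in the motif differences was not tested.

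**Figure D3:**
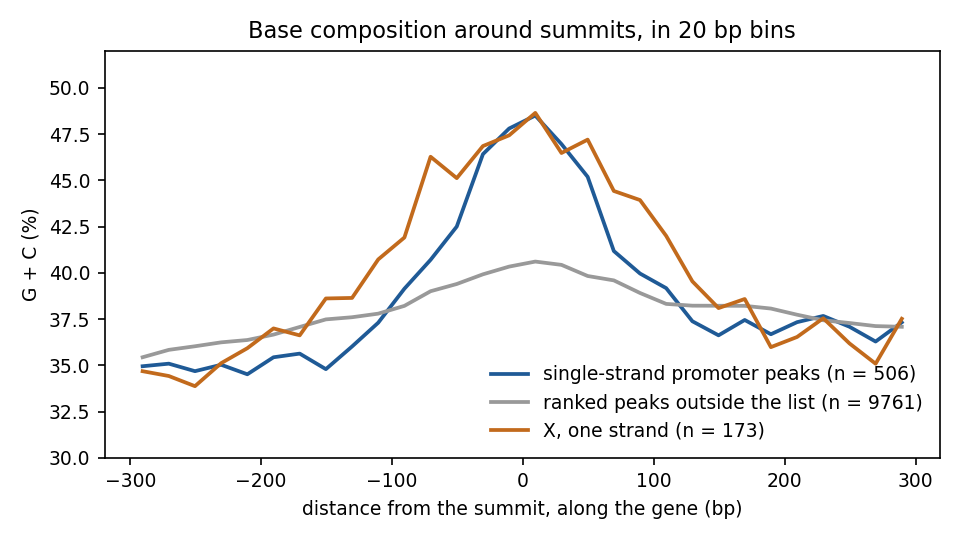
Share of G and C in bins of 20 bp around the summit, read along the gene, for single-strand promoter peaks (blue), ranked peaks outside the conservative list (grey) and X promoter peaks with one strand (orange). The blue line rises from 34.95% at the upstream edge to 48.5% just downstream of the summit, while the grey line stays lower at the summit; the vertical axis does not start at 0.

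No element passed the test for a preferred direction relative to the gene. Over 12 elements that are not palindromes, 0 passed an exact binomial test of direction, over peaks that hold the element on 1 strand only (adjusted exact p of at least 0.0531), although 3 had an unadjusted p under 0.05. The 8-mer read along the gene in 19 of 51 peaks (37.3%; 24.1 to 51.9; adjusted exact p = 0.169). The PBX-Hox composite read along it in 23 of 49 (46.9%; 32.5 to 61.7; adjusted exact p = 0.846). The Meis core was nearest to the threshold, along the gene in 3 of 19 peaks (15.8%; 3.38 to 39.6; adjusted exact p = 0.0531), against 44.6% of 314 ranked peaks outside; it passed when starts within 500 bp defined the strand (adjusted exact p = 0.0179). In the windows shown above, sec-61.G and ntl-11 carry the 8-mer against the gene and C34C12.8 along it.

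The share of promoters with a tandem neighbour did not pass the test against ranked peaks outside the list. The end of another gene on the same strand lay within 1000 bp upstream of the start in 159 of 506 (31.4%; 27.4 to 35.7) and in 29.8% of those outside (Fisher's exact test, p = 0.455). The nearest upstream gene was on the same strand in 61.9% and 63.5%. Examples with a close same-strand neighbour among the strongest are mtcu-2, with a gap of 52 bp, Y39B6A.43 with 81 bp and his-37 with 263 bp. Of the 506 peaks, 263 were nearest to a start on the plus strand, and 40 had more than 1 gene starting within 1000 bp.

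Ribosomal protein genes were the list with the most of these peaks. Gene lists were defined by name, and a gene counts where its start is the nearest to a summit. Of the 37 cytosolic ribosomal protein genes with a ranked peak that met the rule, 13 (35.1%; 20.2 to 52.5) had a peak in the conservative list, beside 7.39% of all 6265 genes. Their median signal was 118, beside 84.3 over all. The 13 genes were rpl-3 (735), rpl-35 (426), rps-24 (284), rpl-24.2 (171), rps-28 (167), rpl-41.2 (161), rps-4 (118), rpl-14 (101), rpl-23 (83.2), rps-21 (80.3), rpl-29 (77.0), rpl-38 (75.6) and rpl-6 (68.0), with the joint signal after each name.

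All 13 of these summits lay upstream, from 447 to 164 bp before the start with a median of 312 bp, beside a signed median of −178.5 bp over all 506 peaks. Apart from rpl-24.2 at 164 bp, each was at least 274 bp upstream. Of the 13, 4 held the 6-mer or the 8-mer, 3 the GA repeat, 2 the GC box, 1 the E-box and 0 the PBX-Hox composite. Mitochondrial ribosomal proteins were near the background, with 2 of 30 genes (6.67%): mrpl-28 with a signal of 108 at 114 bp upstream and mrpl-55 with 90.0 at 124 bp upstream.

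The respiratory chain and ATP synthase had 5 of 22 genes (22.7%; 7.82 to 45.4), with cox-5A at 345, cox-5B at 258, nduf-11 (a subunit of NADH dehydrogenase) at 103.6 and cyc-2.1 (cytochrome c) at 62.7. DNA replication and the cell cycle had 5 of 20 (25%; 8.66 to 49.1), and all 5 summits lay upstream: cdc-48.1 at 509, pcn-1 (the sliding clamp PCNA) at 186, cdk-7 at 102, mcm-3AP at 89.6 and mcm-4 (a subunit of the replicative helicase) at 78.5. The name pattern took in cdc-48.1 and mcm-3AP, whose known roles lie in protein extraction and RNA export.

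Translation initiation factor 3 supplied all 3 genes of the translation factor list (3 of 18, 16.7%), with eif-3.C at 168, eif-3.B at 105 and eif-3.G at 58.3. Chaperones had 4 of 26 (15.4%), with hsp-1 at 231, dnj-9 at 161, pfd-3 (prefoldin) at 85.4 and hsp-70 at 83.2. Vesicle traffic had 5 of 42 (11.9%), with sec-61.G at 344, vps-60 at 156, vps-25 at 140 and vps-4 at 132. Splicing and RNA processing had 2 of 23 (8.70%), mog-4 at 586 and snr-4 (a core spliceosomal Sm protein) at 149. Proteasome subunits had 1 of 14, rpn-11 at 91.3, and histones 2 of 9, his-37 at 416 and his-72 (histone H3.3) at 56.6.

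Among regulators of development, 2 of 29 homeobox genes (6.90%; 0.846 to 22.8) were nearest to one of these peaks, near the background of 7.39%. Both encode known partners of PBX proteins: unc-62, the worm Meis protein, and lin-39, a Hox gene. The peak at unc-62 (chrV:4499388-4499703) had a joint signal of 101, with 52.4 in replicate 1 and 45.3 in replicate 2. That at lin-39 (chrIII:7534589-7534904) had 82.6, with 42.2 and 42.8 in replicates 1 and 2. Both summits lay 58 bp downstream of the start. Heterochronic genes, which time larval fates, had 3 of 8 (37.5%; 8.52 to 75.5): lin-66 at 133, lin-28 (an RNA-binding protein) at 87.9 and mab-10 (a transcription cofactor) with peaks of 78.5 and 53.1. The intervals of lists this small span most of the scale.

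Nuclear hormone receptors had 4 of 103 genes (3.88%; 1.07 to 9.65): nhr-119 at 102, nhr-49 (a regulator of fat metabolism) at 90.9, nhr-57 at 82.7 and nhr-256 at 80.4. Genes of neurons had 2 of 33 (6.06%), ida-1 (a dense-core vesicle protein) at 76.4 and unc-25 (the enzyme that makes GABA) at 75.03. The germline list had 1 of 25, rad-51 (the recombinase of double-strand break repair) at 70.5. The neuropeptide list had 1 of 36, ins-13, with a signal of 2.08, the lowest of all 506 peaks and one that overlaps another peak.

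The interval of the chemoreceptor list lay below the share of all genes, and those of collagens and C-type lectins included it. Cuticle collagens had 3 of 64 genes (4.69%; 0.977 to 13.1), with col-72 at 103.9, col-94 at 60.1 and col-93 at 5.79, all with summits downstream of the start. C-type lectins had 1 of 65 (1.54%; 0.0389 to 8.28), clec-56 at 63.0. Chemoreceptors had 2 of 190 (1.05%; 0.128 to 3.75), srh-2 at 160 and srz-62 at 96.6. No gene was nearest to such a peak in the lists of aminoacyl tRNA synthetases (0 of 16), vacuolar ATPase (0 of 12), Wnt signalling (0 of 16), muscle structure (0 of 17), major sperm proteins (0 of 5) and epidermis and seam regulators (0 of 14), where the upper bounds of the exact intervals run from 19.5% to 52.2%.

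**Figure D4:**
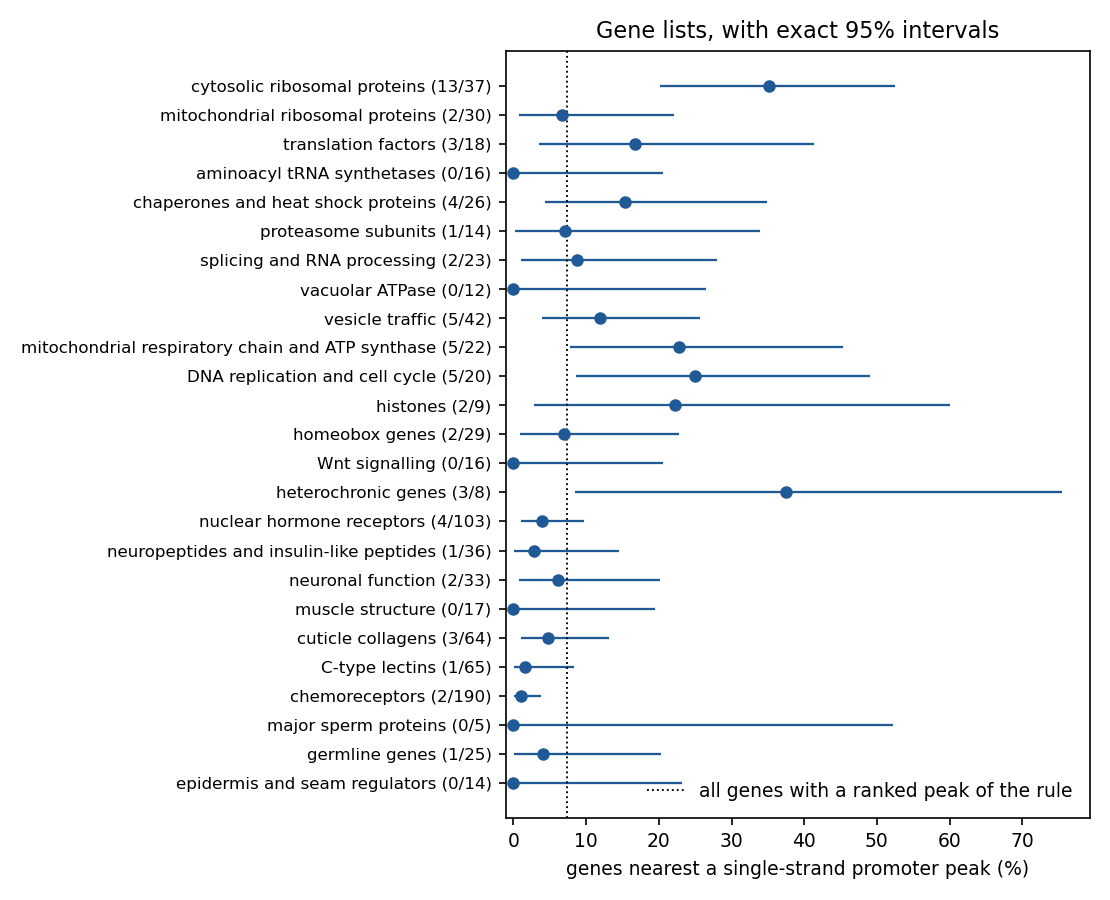
Share of genes in each list that are nearest to a single-strand promoter peak, of those with a ranked peak that met the same rule (counts in brackets), with exact 95% intervals. The dotted line is the share over all 6265 genes, 7.39%; cytosolic ribosomal proteins stand at 35.1% and chemoreceptors at 1.05%.

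Small noncoding RNA genes lay near some of these summits. A snoRNA gene, which guides the modification of ribosomal RNA, was within 200 bp of 16 of the 506 summits (3.16%; 1.82 to 5.08) and of 33 of the 9761 outside the list (0.338%; 0.233 to 0.474). The strongest of the 16 were at twk-5 (171), F55A11.6 (162), T02E1.2 (159) and Y75B12B.11 (157). Genes annotated as ncRNA were near 57 (11.3%; 8.64 to 14.3) and 3.596%. For snRNA, miRNA, piRNA and pseudogenes the intervals of both sets overlapped, and each was near at most 8 of the 506.

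Most of these peaks were found in the unthresholded list of each replicate, and 36.6% passed the threshold in both. Each replicate has its own thresholded list, of 1249 peaks for replicate 1 and 1490 for replicate 2. Of the 506 peaks, 185 (36.6%; 32.4 to 40.9) overlapped a peak in both, 68 in the first replicate's list alone, 95 in the second's alone and 158 in neither. Over all conservative peaks the share in both was 34.1%. The joint signal had a median of 133 for peaks in both lists, 81.7 and 81.8 for those in one, and 66.4 for those in neither. In the strongest set by signal 122 of 127 were in both lists, and in the weakest 7 of 127.

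The share in both lists was lower than the 113 of 235 (48.1%; 41.5 to 54.7) among promoter peaks with starts on both strands (Fisher's exact test, adjusted exact p = 0.00741). It did not pass against the X promoter peaks with one strand, 51 of 173 (29.5%; adjusted exact p = 0.0966). The median signal was 84.3 against 98.4 with starts on both strands, and its part in the difference was not tested. Under limits on signal chosen after the data were seen, the shares were 22.2% and 22.4% between the quartiles of the 506 (adjusted exact p = 1) and 69.6% and 72.8% above their median (adjusted exact p = 0.569).

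Nearly every single-strand promoter peak had a counterpart before thresholding. Of the 506, 502 overlapped a ranked peak of replicate 1 and 503 one of replicate 2. These ranked lists have no threshold and hold 40237 and 36837 peaks, and the conservative list came from the same 2 libraries. The same share over all conservative peaks is not given here, so the counts show nothing particular to these peaks. The signal of the counterpart had a median of 44.7 and a range from 26.7 to 377 in replicate 1, and a median of 41.9 and a range from 24.1 to 362 in replicate 2. Over the 499 peaks with both, Spearman's rho of the replicate signals was 0.579 and Pearson's r of their logarithms 0.772, as a description, since the peaks come from the same 2 libraries and were chosen on both. The peak at unc-16, with a joint signal of 208 and 113 in replicate 1, had no overlapping ranked peak in replicate 2.

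**Figure D5:**
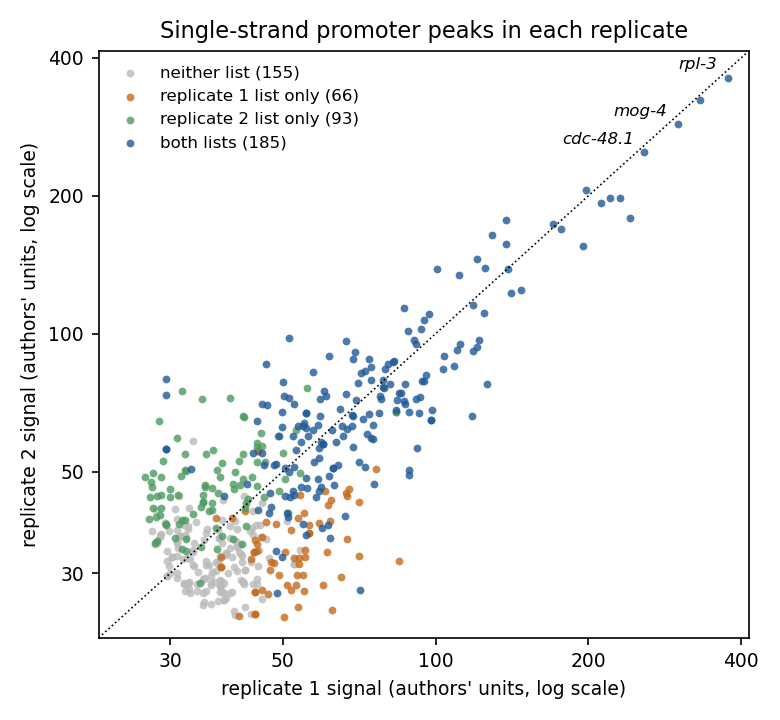
Signal of the overlapping ranked peak in replicate 1 (horizontal) and replicate 2 (vertical), on log scales in the authors' units, for the 499 single-strand promoter peaks with one in each, coloured by the thresholded lists that hold them. The dotted line marks equal values; peaks of both lists (185) run up to rpl-3 at 377 and 362, and the peaks of neither list gather at the low end.

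The deposited q-value was above 0.05 for 39 of the 506 (7.71%), beside 216 of all 2522 conservative peaks (8.56%). The 39 had signals of at most 53.2, and 31 of the 39 overlapped another conservative peak. The counterparts of such peaks in the replicates can be those of the stronger neighbour. At the distance threshold, 16 peaks had a summit 480 to 500 bp from a start, with a median signal of 110 and a range from 6.11 to 171, and 4 autosomal peaks lay just beyond, at 501 to 520 bp, with signals from 71.2 to 235. The peaks were spread over the 5 autosomes, with 90 to 109 on each and a density from 5.14 to 7.23 per Mb, and were 4.45% to 5.63% of the ranked peaks that met the rule on each.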

How the data were processed

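ChIP-seq peak lists of 2 biological replicates of 1 group were analysed. The deposited descriptions place all lists on ce11. No aligner or peak caller is given in the sources used here. For each peak the authors deposited a score scaled by IDR up to 1000, a signal on a scale that is not given, a −log10 q-value and the summit. Depth is unknown, since no list has read counts. Intervals are exact (Clopper-Pearson, 95%) and cover only the counting error over peaks or genes. Signals were used to rank and describe peaks within a list.

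Summits were placed against Ensembl release 115 protein-coding transcript starts and sequence came from RefSeq, both WBcel235. Coordinates are 1-based. Overlap means at least 1 bp. The 13 sequence elements were searched within 50 bp of the summit and compared with flanks (exact McNemar test), with other peak sets (two-sided Fisher's exact test) and for direction (exact binomial test). All were adjusted by Benjamini-Hochberg within each family with a threshold of 0.05. Gene lists (25, by name pattern) are described by counts with no test. The statistics were first tested on simulated peaks.

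The rule named the nearest gene of the 25 strongest peaks and up to 4 peaks per gene list, all 13 ribosomal genes being added later. Windows for printing were taken from the strongest peaks with each element off chromosome I, and fust-1 was left out. Other names, the 6-mer comparison, noncoding genes and sets by signal were chosen after values were seen. The peaks, lists and elements were chosen with earlier results of these data known. The alternatives were the larger thresholded list, stronger peaks, a q-value limit, other distances and windows, 1 peak per gene and each replicate's list alone. Tests were run in scipy 1.17.1 and tables handled in pandas 2.3.3 and numpy 2.4.6, under Python 3.11.15, with figures drawn by matplotlib 3.10.9.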

Additional observations from a re-analysis of the deposited data

How the results depend on the processing

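The 506 peaks became 253 when only the stronger part by signal was kept, 300 with summits within 250 bp of a start, and 260 to 319 in the list of one replicate alone. The share upstream of the start kept its direction and call under each alternative run. The share with a tandem neighbour, 31.4% against 29.8%, never passed and turned lower with strands set by starts within 500 bp (27.04% against 27.5%) and with one peak per gene (32.4% against 32.8%). The share in both replicates' lists, 36.6% against 48.1% with starts on both strands, became 69.6% when only the single-strand peaks were limited to the stronger part, which turns the direction by construction and passes against X. With both sides limited alike it no longer passed, at 22.2% for middle signals and 69.6% above the median. Elements past the threshold against ranked peaks outside, the 8-mer and 6-mer included, went from 9 to 5 with summits within 250 bp. Under the other alternatives they numbered from 7 to 9. Against peaks with starts on both strands they went from 2 to 1 for the stronger part, 0 within 250 bp, 1 with strands set by starts within 500 bp, 1 with one peak per gene, 1 with upstream summits only, and 0 to 1 in the list of one replicate. Directional elements went from 0 to 1 with strands set by starts within 500 bp. Over single elements and alternatives, 541 values kept their call and did not turn, 25 lost the call, 4 gained it and 56 turned direction, none of the 56 past the threshold in either setting. The cause was not tested except where the construction shows it. No paired analysis was possible because both replicates belong to 1 group. The number of peaks limits the rarer elements, and depth is unknown.

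The values that turned are given as the share of single-strand promoter peaks with the element or, for direction, the share that read along the gene. A range over the lists of one replicate alone is given where either list turned, and can include an end that did not turn. Against flanks, the values that turned were in the larger list GATAA 23.4%, and within 25 bp of the summit GATAA 13.4%, and with flanks from 400 bp TGATTGAC 0.395%. Against ranked peaks outside, the values that turned were in the stronger part GATAA 18.97%, and within 250 bp GATAA 18.7%, and within 25 bp of the summit TGATTGAC 0%, and with upstream summits TGATTGAC 0.245%, GATAA 21.3%. In the list of one replicate alone the ranges were TGATTGAC 0% to 0.94%, GATAA 17.7% to 18.5%, TGACAG 3.13% to 3.85%. Against peaks with starts on both strands, the values that turned were in the larger list CACGTG 4.45%, and in the stronger part CCGCCC 9.09%, and within 250 bp GTTANNTA 1%, and with the 500 bp strand window TGACAG 3.57%, GTTANNTA 1.53%, and within 25 bp of the summit TTTCAG 3.75%, and with upstream summits TTTTTT 25%. In the list of one replicate alone the ranges were GTTANNTA 0.385% to 1.25%, CCGCCC 7.52% to 10.8%, TGACAG 3.13% to 3.85%. Against X, the values that turned were in the larger list TGATTGAC 0.557%, GTTANNTA 1.67%, CGTCTC 18%, and within 250 bp TGACAG 4.33%, GTTANNTA 1%, GAGAGA 21.7%, CACGTG 4.67%, CCGCCC 5.67%, and with the 500 bp strand window GTTANNTA 1.53%, and with one peak per gene GTTANNTA 1.73%, TATAAA 5.4%, and within 25 bp of the summit GTTANNTA 0.593%, AGACGCAG 4.94%, CCGCCC 3.36%, GATAA 13.4%. In the list of one replicate alone the ranges were TGACAG 3.13% to 3.85%, GTTANNTA 0.385% to 1.25%, TATAAA 3.85% to 5.02%, TTTTTT 16.5% to 21.3%, TGATTGAC 0% to 0.94%, CGTCTC 17.9% to 19.2%. For direction along the gene, the values that turned were in the larger list TGATNNAT 50.9%, TTTCAG 39.5%, and in the stronger part TTTCAG 35.7%, and within 25 bp of the summit TGATNNAT 55.6%, GTTANNTA 33.3%, GATAA 49.3%. In the list of one replicate alone the ranges were TGATNNAT 52% to 61.3%, CGTCTC 48.98% to 66.1%, TTTCAG 28.6% to 40%.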
